A study of Drosophila melanogaster with 4 samples.

Results

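The Antennapedia complex is one of the 2 Hox gene clusters of Drosophila melanogaster, and linker histone H1 was mapped over it in larvae of the third instar. The cluster was taken as the stretch of chromosome arm 3R from 2470000 to 2840000 on Release 5 of the genome. It was chosen by position and not by measured values, and it holds the 5 Hox genes lab, pb, Dfd, Scr and Antp. In this stretch, 10 of the 3779 H1 regions of replicate 1 were found, 19 of the 4665 of replicate 2 and 75 of the 18812 of the combined list. The regions come from chromatin immunoprecipitation and sequencing (ChIP-seq) with an antibody against H1 in wild-type Oregon-R larvae. The series has 2 H1 ChIP samples and 2 input samples, all of this 1 strain, stage and genotype, with no treatment. Each ChIP sample has its own list of enriched regions, and a further list combines the series. The input samples were not analysed here, and read depth is unknown from region lists.

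H1 is the linker histone. It binds the nucleosome and the DNA that enters and leaves it, and it is known for compact chromatin and low transcription. Hox genes encode homeodomain transcription factors that give each body segment its identity, and their order along the chromosome follows the order of the segments they pattern. In cells where a Hox gene is not used, Polycomb group proteins keep it silent, while Trithorax group proteins keep it active elsewhere. Larvae are a mixture of many tissues, so a region that is strongly enriched in few cells and one that is weakly enriched in many cannot be told apart here.

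The gene positions came from RefSeq on Release 6, while the regions are on Release 5. Genes were placed with the constant shift of 4174278 bases that the definition of this stretch gives for 3R, and 4206 of 4226 genes of the arm then fell inside the Release 5 arm. All 5 Hox genes lay inside the stretch. The table gives the 2 ends of each gene, without strand, exons or promoters, so the values below are for whole gene spans.

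**Figure D1:**
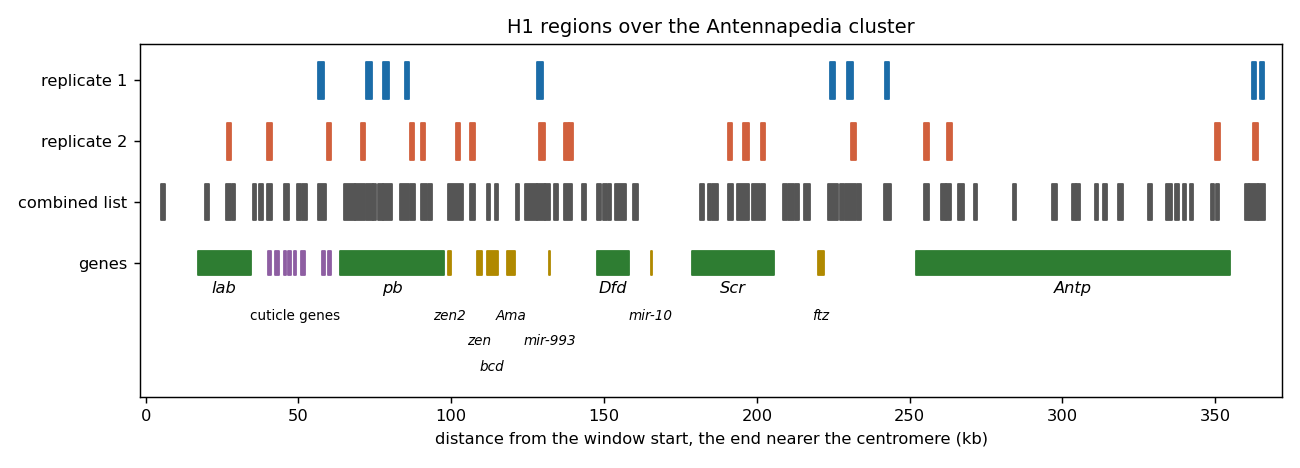
H1 regions of replicate 1, replicate 2 and the combined list (bars, to scale) along the Antennapedia cluster, with gene spans below, against distance in kb from the end of the stretch nearer the centromere. The Hox genes are green, the cuticle genes purple and other named genes ochre. Replicate 1 has 3 regions inside a Hox span, all in pb, and the longest stretch without a combined region, 20.4 kb, lies between Dfd and Scr.

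The Hox cluster as a whole was an ordinary part of 3R in H1 cover. Covered share means the percentage of bases that lie inside an H1 region. Replicate 1 covered 4.60% of the cluster and replicate 2 covered 7.67%, a mean of 6.13 ± 2.17% (SD, n = 2). The combined list covered 36.4%. The whole arm was covered to 7.20%, 8.42% and 37.1% in the same order.

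Against windows of equal size, the cluster lay below the median in each list but far from the lowest. The arm was tiled into 74 windows of 370 kb, the cluster being 1 of them. In replicate 1, 20 of the 73 other windows had a lower share and 53 a higher one, with a median of 7.44% and a range from 0.375 to 16.1%. In replicate 2, 35 were lower and 38 higher, with a median of 8.19% and a range from 0 to 25.5%. For the combined list, 33 were lower and 40 higher, with a median of 39.9% and a range from 11.4 to 70.6%. The ratio of the cluster to the median window was 0.618 in replicate 1 and 0.936 in replicate 2, a mean of 0.777 ± 0.225 (SD, n = 2). Windows are not replicates and there is 1 cluster, so its place among them is a description with no test. Nothing in the labels ties the replicates to separate collections of larvae, and their spread may therefore be technical.

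**Figure D2:**
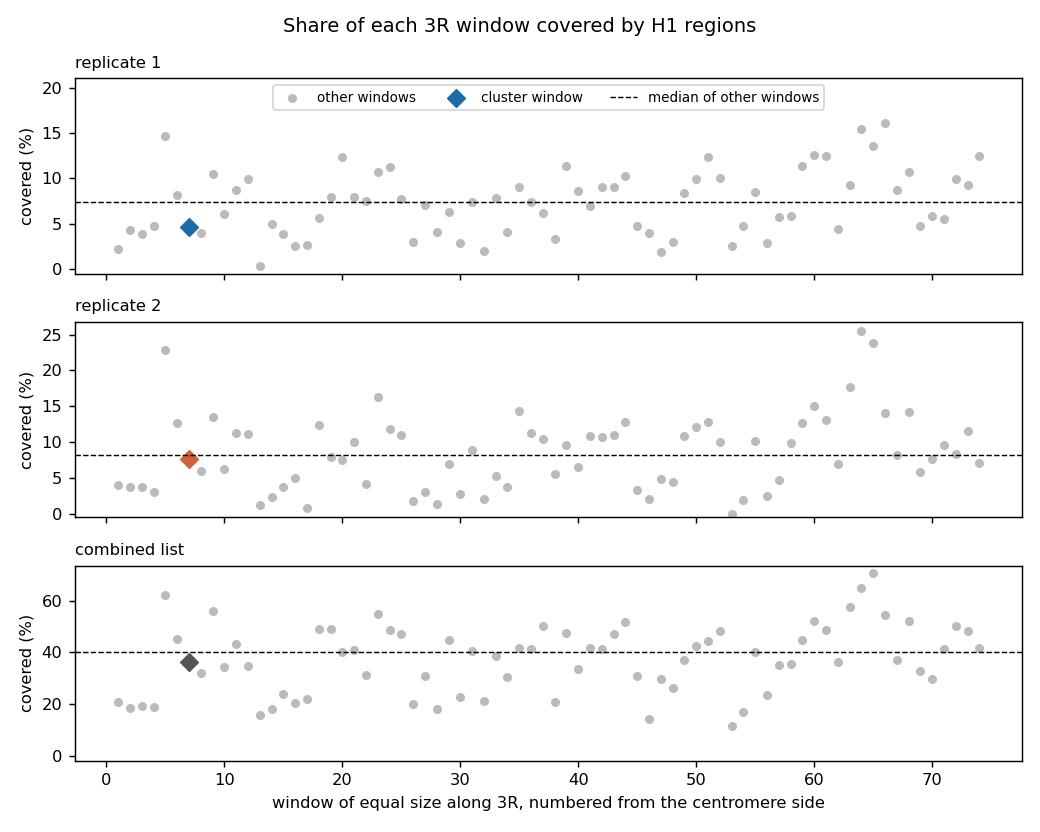
Percentage of bases covered by H1 regions in each of 74 windows of equal size along 3R, numbered from the centromere side, for each list. The diamond is the Antennapedia cluster and the dashed line the median of the other windows. The cluster lies at 4.60%, 7.67% and 36.4%, below the line in each panel and inside the range of the other windows.

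In the combined list, the cover of the cluster was split into many short regions. It held 75 combined regions, against a median of 62 per window, and 55 of the 73 other windows held fewer. These regions had a median length of 1495 bp, against 1719 bp on all of 3R, and 27 of the 75 were longer than the 3R median. In replicate 2, 3 of the 19 regions were longer than the 3R median of that list, while in replicate 1, 6 of 10 were. By number, the cluster held 10 regions in replicate 1, against a median of 17 per window, and 19 in replicate 2, against 18. The longest combined region of the cluster measured 5075 bp, against 20555 bp for the longest of the arm.

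Scores were those of typical regions. The score of a region is the authors' own value and is used only within its list. In replicate 1 the scores in the cluster ran from 0.43 to 0.64, with a median of 0.56 against 0.53 on 3R. In replicate 2 they ran from 0.48 to 0.67, with a median of 0.57, the same as on 3R. Combined scores ran from 0.19 to 0.48, with a median of 0.35 against 0.38, and 29 of 75 lay above the 3R median. No region of the cluster came near the highest scores of the arm, 0.81, 0.85 and 2.10 in the 3 lists.

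Within the cluster, the 5 Hox genes together were covered less than the rest of the stretch in each replicate, and more in the combined list. Their spans take 192 kb, or 51.9% of the stretch. Cover of these spans was 2.82% in replicate 1 and 7.55% in replicate 2, and 38.6% by the combined list, with a replicate mean of 5.18 ± 3.35% (SD, n = 2). The remaining 178 kb was covered to 6.52%, 7.79% and 34.0%, with a replicate mean of 7.16 ± 0.895%. The gap between the 2 parts was wider in replicate 1 than in replicate 2, and no test was made. The means differ by less than the SD of the Hox spans between replicates, and the order of the 2 parts is reversed in the combined list. Of the regions in the cluster, 3 of 10 in replicate 1, 10 of 19 in replicate 2 and 43 of 75 in the combined list overlapped a Hox span.

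Cover was uneven among the members. Dfd, pb and Scr, which pattern the mouthparts and the front of the thorax, were covered over most of their length in the combined list, to 68.5%, 65.4% and 52.8%. With combined regions of at least 2000 bp alone these shares were 33.4%, 43.8% and 24.6%. Antp and lab, at the outer ends of the cluster, were covered to 25.6% and 22.9%, and to 0% by regions of at least 2000 bp. At least 50% of the span was covered in 3 of the 5 Hox genes in that list, with all regions, against 31.1% of the 457 genes of 3R of at least 10 kb, the length class to which all 5 belong, and 27.0% of all 3R genes placed on the arm.

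The replicates taken singly gave a different order. Replicate 1 had regions in 1 of the 5 Hox genes, pb, and replicate 2 in 4, all but Dfd. The background was that 49.2% and 47.9% of the 3R genes of at least 10 kb overlapped a region in replicates 1 and 2, and 13.4% and 12.9% of all 3R genes. In the combined list all 5 overlapped a region, against 82.5% of genes of at least 10 kb and 42.7% of all. Only pb overlapped a region in each replicate, which 37.0% of the long genes and 6.47% of all genes did. Against the long genes, the count of members lay below the background in replicate 1 and above it in replicate 2, and 5 genes are too few to read more from these counts.

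**Figure D3:**
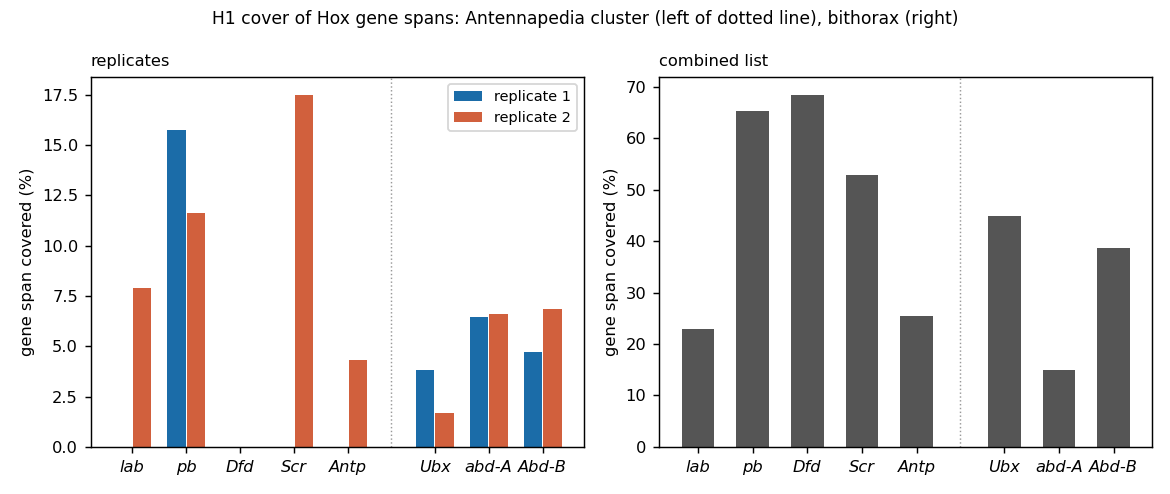
Percentage of each Hox gene span covered by H1 regions, with the replicates on the left and the combined list on the right. The 5 genes of the Antennapedia cluster stand left of the dotted line and the 3 bithorax genes right of it. Dfd is at 0 in both replicates and at 68.5% in the combined list, while pb is covered in every list.

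The lab gene (labial), which acts in the head and in the midgut, spans 17.2 kb and lies nearest the centromere. Replicate 1 covered 0% of it, replicate 2 covered 7.87% and the combined list 22.9%. Replicate 2 had 1 region there, from 2496522 to 2497872, with a score of 0.52. The combined list had 3 regions in lab, with scores from 0.29 to 0.36, all below the 3R median of that list. By combined cover, 190 of the other 456 long genes of 3R lay below lab and 266 above.

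The pb gene (proboscipedia), needed for the adult mouthparts, spans 34.3 kb and was the only member with regions in each replicate. Replicates 1 and 2 covered 15.8% and 11.6% of it, and the combined list 65.4%, a replicate mean of 13.7 ± 2.92% (SD, n = 2). Each replicate had 3 regions in it, with no base covered in both, and the combined list had 10. By replicate mean, 373 of the other 456 long genes of 3R were covered less and 83 more, and in the combined list 376 less and 80 more.

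The combined regions of pb were packed closely. When combined regions less than 1000 bp apart were joined, 6 of them formed a stretch of 15.7 kb from 2534968 to 2550696, of which 92.6% was covered. It was the longest such stretch in the cluster, and 113 of the 2463 stretches of 3R were longer. The 10-kb bin of the cluster with the most combined cover, at 89.2%, lay within pb and was also the one with the most cover in replicate 1, at 39.5%.

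The Dfd gene (Deformed), which specifies the mandibular and maxillary segments, spans 10.6 kb. Neither replicate had a region in it. The combined list had 4 regions there, covering 68.5%, with scores from 0.28 to 0.40. One of them, from 2623546 to 2627082, measured 3537 bp and was among the 5 longest of the cluster. The combined list thus covered Dfd more than any other member, whereas neither replicate's own list did so at all. How the combined list was made is not stated in the labels or headers.

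The Scr gene (Sex combs reduced), which acts in the labial and the first thoracic segments and in the salivary glands, spans 26.9 kb. Its cover was 0% in replicate 1, 17.5% in replicate 2 and 52.8% by the combined list. The 3 regions of replicate 2 lay from 2660670 to 2661986, from 2665597 to 2667592 and from 2671243 to 2672629, with scores of 0.50, 0.65 and 0.48. The combined list had 7 regions, and their highest score was 0.39. The nearest region of replicate 1 was more than 20 kb away from each of the 3, at 21.2, 26.3 and 31.9 kb. Several short noncoding RNA genes lie inside Scr, so cover there cannot be assigned to Scr alone.

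The Antp gene (Antennapedia), which specifies thoracic segments and gives legs rather than antennae their identity there, is the longest member at 103 kb. Replicate 1 covered 0% of it, replicate 2 covered 4.32% and the combined list 25.6%. Replicate 2 had 3 regions there and the combined list 19, with a median length of 1225 bp. In 3 equal parts of the gene, counted from the centromere side, combined cover was similar, at 26.5%, 24.9% and 25.3%. On a finer scale it was uneven, and stretches of 11.7 kb and 11.5 kb inside the gene held no combined region. In replicate 2 the middle part held no region, and the stretch from 2733712 to 2819994, 86.3 kb long, was free of regions. In replicate 1 the free stretch was 119 kb, from 2713242 to 2831946, and took in the whole gene. Of the 1165 stretches between regions of that list on 3R, 41 were longer. The gene CG46458 lies within the span of Antp and shares its cover.

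Antp makes up most of the Hox spans, so it sets much of their summed value. Without it the other 4 spans, 88.9 kb, had cover of 6.08% in replicate 1, 11.3% in replicate 2 and 53.7% by the combined list.

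**Figure D4:**
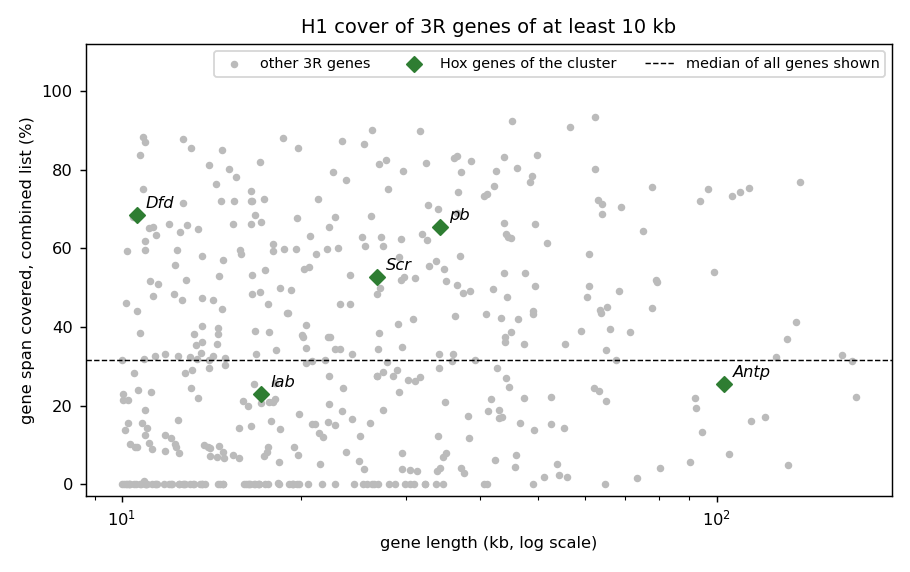
Percentage of the gene span covered by the combined list against gene length (log scale) for the 457 genes of 3R of at least 10 kb. The dashed line is their median, 31.6%. Of the Hox genes of the cluster, Dfd, pb and Scr lie above it at 68.5%, 65.4% and 52.8%, and Antp and lab below it at 25.6% and 22.9%.

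Over the long genes of 3R the median cover was 0% in each replicate and 31.6% in the combined list. The median of the 5 Hox genes was 0%, 7.87% and 52.8% in the same order. The numbers of Hox genes above the median of long genes were 1, 4 and 3. The combined cover of every member depended in part on regions of lower score. When regions of the combined list below its genome-wide median score were left out, the list covered pb to 32.7%, Dfd to 9.68% and Antp to 9.39%, and left lab and Scr at 0%. The highest score in Scr, 0.39, fell below that limit but lay above the 3R median of 0.38, so the result depends on the limit chosen.

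The replicates rarely marked the same bases in the cluster, and never inside a Hox gene. The bases that both replicates covered came to 2.80 kb, or 6.57% of those covered by at least 1 of them. In 16 of the 73 other windows this share was lower and in 57 higher, with a median of 9.88%. By number, 3 of the 10 regions of replicate 1 overlapped replicate 2 by at least 1 bp, or 30.0% (95% Wilson interval 10.8 to 60.3%), against 36.9% on the rest of 3R. In the other direction it was 3 of 19, or 15.8% (5.52 to 37.6%), against 31.98%. These intervals cover counting of regions alone and include the value of the rest of the arm.

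No base of the 5 Hox spans was covered in both replicates. Such a base was held by 22.5% of the 3R genes of at least 10 kb and by 4.49% of all 3R genes. The 5 genes held 3 regions of replicate 1, too few to set this count against those shares. In pb, the one member with regions in each replicate, some of the regions lay close together without overlap. The region of replicate 1 from 2542203 to 2544069 lay 496 bp from one of replicate 2, and that from 2554799 to 2556250 lay 280 bp from another. The third, from 2547707 to 2549790, was 6.00 kb from the nearest. The region of replicate 2 from 2560146 to 2561455 was 3.9 kb from the nearest of replicate 1. Over the whole cluster, 3 regions of replicate 1 lay within 1000 bp of replicate 2 without overlap. How often this occurred on the rest of 3R was not counted.

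The 3 places shared by both replicates all lay between or beyond the Hox genes. The first was between Ama and Dfd, inside the noncoding RNA gene CR42721, where the combined region from 2598108 to 2600686 was covered to 70.3% by replicate 1 and 70.9% by replicate 2. This region had the highest score of the cluster in the combined list, 0.48, above 97.2% of the combined regions of 3R. The second was between ftz and Antp, from 2698844 to 2702468, with a score of 0.41, and held no annotated gene. The third, beyond Antp from 2831098 to 2833860, had a score of 0.44, the third highest of the cluster, and was covered to 56.1% in each replicate. The second highest score, 0.47, belonged to a region in Antp from 2803868 to 2805782, which neither replicate covered.

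Of the 75 combined regions, 50 overlapped neither replicate, 11 overlapped replicate 1 and 17 replicate 2, with 3 overlapping both. The shares overlapping replicates 1 and 2 were 14.7% and 22.7%, against 23.0% and 25.9% on the rest of 3R. The shares overlapping neither or both were not counted there. All 10 regions of replicate 1 and 18 of the 19 of replicate 2 overlapped the combined list, against 99.0% and 99.1% on the rest of 3R. The exception, from 2529273 to 2530624, covered 99.9% of the cuticle gene Ccp84Aa. The combined list bears on the same libraries, so its overlap with them is not separate evidence.

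The DNA between and beyond the Hox genes fell into parts with much and with little H1. Between Dfd and Scr, 20.7 kb, neither replicate had a region and the combined list covered 7.74%. The part from the start of the stretch to lab, 17.1 kb, was likewise free in both replicates and covered to 7.26%, with 1 combined region. The other parts were covered to 37.7% between lab and pb, 45.8% between pb and Dfd, 38.1% between Scr and Antp and 42.0% beyond Antp in the combined list. In replicates 1 and 2, the part between pb and Dfd was covered to 3.80% and 15.6%, and that between Scr and Antp to 10.8% and 2.94%. The replicates thus differed in which of these 2 parts they covered more. Both also covered the part between lab and pb, to 5.98% and 10.8%, and that beyond Antp, to 19.8% and 10.6%.

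The longest stretch of the cluster without a combined region ran from 2631085 to 2651447, or 20.4 kb. Of the 4541 such stretches of 3R, 177 were longer. It holds mir-10, a conserved microRNA gene of Hox clusters, and reaches into the end of Scr. It also holds 4 lysine tRNA genes and 2 genes of 7SL RNA, the RNA of the signal recognition particle. These 6 genes take 890 bases or 4.37% of it, and whether reads from such gene copies could be placed was not tested. The other microRNA gene, mir-993, was covered to 95.8% by the combined list and to 0% in each replicate.

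The homeobox genes of the cluster that are no Hox genes in function were not covered in either replicate. These are zen and zen2, of which zen acts in the dorsal embryo, bcd, whose maternal mRNA sets the front of the egg, and ftz, a segmentation gene. In the combined list zen2 was covered to 97.7% and bcd to 53.7%, while zen and ftz were at 0%. The shares of all 3R genes overlapping a region were 13.4%, 12.9% and 42.7% in replicate 1, replicate 2 and the combined list. A group of 4 genes is too small to set against them. The longest combined region of the cluster, from 2568880 to 2573954, covered zen2. Ama, which encodes a secreted immunoglobulin-domain protein, was at 0% in every list. All of these genes are shorter than 4 kb, so 1 region can decide the value.

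Between lab and pb lies a group of 8 cuticle genes, Edg84A and 7 Ccp84A genes, whose products are proteins of the cuticle. In replicate 1, 1 of the 8 overlapped a region, Ccp84Ab, covered to 56.6%. In replicate 2, 2 did, Edg84A at 100% and Ccp84Aa at 99.9%. In the combined list 5 of 8 did. The shares of all 3R genes were 13.4%, 12.9% and 42.7%, and 8 genes are too few to set against them. No cuticle gene was covered in both replicates, and the group mean was 14.2 ± 10.0% (SD, n = 2).

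Of the 46 genes of the stretch that are not among the 5, 3 overlapped a region of replicate 1, 8 of replicate 2 and 20 of the combined list, beside 13.4%, 12.9% and 42.7% of all 3R genes. In replicate 1 and the combined list these include Ass, which crosses the start of the stretch and was covered by a region outside it. Of the 46, 7 lie inside a Hox span and share its regions, and 0, 4 and 5 of these overlapped one in the same order. None of the 46 was covered over more than 50% of its length in each replicate.

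The other Hox cluster of the fly gave similar combined cover. The bithorax genes Ubx, abd-A and Abd-B, which pattern the hind thorax and abdomen, together span 146 kb and also lie on 3R. Replicates 1 and 2 covered 4.51% and 4.07% of them and the combined list 38.3%, against 2.82%, 7.55% and 38.6% for the 5 genes of the Antennapedia cluster. The replicate means were 4.29 ± 0.307% and 5.18 ± 3.35% (SD, n = 2). The Antennapedia spans exceeded the bithorax spans by 0.895 ± 3.66 percentage points (SD, n = 2), a mean smaller than its SD, with -1.69 in replicate 1 and 3.48 in replicate 2. An exact sign-flip permutation test over these 2 values, added after they were seen, gave a two-sided p of 1, and the smallest p it can give is 0.5. Since 2 values of opposite sign always give that p of 1, the test cannot decide whether the clusters differ. All 3 bithorax genes and 1 of the 5 Antennapedia cluster genes overlapped a region in each replicate, beside 37.0% of the 3R genes of at least 10 kb.

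A further 14 homeobox genes of 3R outside both clusters, such as hth and ems, had cover of 5.21% in replicate 1, 3.96% in replicate 2 and 28.4% by the combined list. The 23 ribosomal protein genes of 3R had no region in either replicate, beside 13.4% and 12.9% of all 3R genes with one. In the combined list 2 of them, RpL10Aa and RpS10a, overlapped a region, beside 42.7% of all 3R genes, and the list covered 4.10% of their summed length. They have a median length of 1.26 kb, against 1.78 kb for all 3R genes and 26.9 kb for the 5 Hox genes. All genes of 3R together were covered to 6.19%, 6.91% and 32.8%, so the Hox spans of the cluster lay below this value in replicate 1 and above it in replicate 2 and the combined list.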

How the data were processed

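H1 ChIP-seq region lists of 2 replicates and 1 combined list were used. Each gives regions with the authors' score, deposited with no stated scale. Per the file headers, positions are on FlyBase Release 5. The submitters' processing notes list Bowtie 0.12.7 without saying what it did. The region caller, threshold, use of input, depth and way of combining are not given in the sources used, so numbers of regions may differ between lists for reasons of calling.

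Covered bases were counted once where regions meet, and overlap meant at least 1 bp. Genes are RefSeq spans (assembly Release 6 plus ISO1 MT), shifted by 4174278 on 3R; local differences between the releases would misplace them, and this was not tested. The members and gene lists were chosen with earlier results of these data known. Named regions are, in the combined list, the 5 longest, the 3 highest in score and those overlapping both replicates, with others where a member is described; named genes come from fixed lists, and the 1 test made compares both Hox clusters. Alternatives were score and length limits, joining, other window limits and tilings, flanks and leaving out each replicate. The interval code was tested on simulated data. Python 3.11.15, numpy 2.4.6, scipy 1.17.1 and matplotlib 3.10.9 were used.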

Additional observations from a re-analysis of the deposited data

How the results depend on the processing

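With regions below the median score of their list left out, replicate means moved to 3.07% for the cluster and 3.53% for its part outside the Hox spans. The mean share of 3R genes overlapping a region moved to 6.53% (13.1% with all regions). The share covered in both replicates of that in either, a single value from the 2 lists together, moved to 2.16%. With regions of at least 2000 bp, replicate means were 0.562% for the cluster, 0.583% outside the Hox spans and 0.543% for the Hox spans. The mean share of genes was then 3.59% and the mean ratio to the median window 0.289, while the share covered in both was 0%. Both limits remove regions, and under the length limit replicate 2 had none in the cluster. Genes covered over at least 50% of their length were 3.93%, and of genes of at least 10 kb 48.6% overlapped a region. Leaving out each replicate in turn gave 4.60 to 7.67% for the cluster, ratios of 0.618 to 0.936, 2.82 to 7.55% for the Hox spans, 6.52 to 7.79% outside them and 12.9 to 13.4% of genes. The Antennapedia minus bithorax difference, 0.895 points, was -0.434 with the score limit and -1.69 to 3.48 with each replicate left out, and the cause was not tested. These settings were added after seeing the data. Without replicate 2, lab, Scr and Antp were at 0%. Joining regions, other window limits or tilings and flanks of 2 kb moved the replicate shares and ratios by less than the spread between replicates. Joining left the share covered in both at 6.56% and the genes overlapping a region at 13.2%. In the combined list, which has no such spread, joining raised the cover of the cluster from 36.4% to 39.1%. The shares of the members then were 77.1% for Dfd, 70.6% for pb, 62.0% for Scr, 26.3% for Antp and 24.6% for lab. The setting with gene starts was not run, since the gene table gives no strand. No paired analysis was possible because the input samples, which share the replicate numbers of the ChIP samples, have no region list here. Depth is not known, and 2 replicates limit every comparison here.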
